A study of Saccharomyces cerevisiae with 10 samples.

Results

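The libraries compared here were those of *Saccharomyces cerevisiae* cultures that carry a low or a high replicate number in the sample labels. The low-numbered group holds replicates 1 and 2 and the high-numbered group replicates 4 and 5, each with 2 libraries of BY *UBR1* wild-type (called BY below) and 2 of BY *UBR1* -469A>T. These are 8 of the 10 libraries of the series, and the pair numbered 3 entered no fit. BY is a haploid laboratory strain, named BY4741 in the labels, and BY *UBR1* -469A>T is the same strain with an A-to-T change in the promoter of *UBR1*, which encodes the ubiquitin ligase of the Arg/N-end pathway. Both strains were untreated. Each culture was diluted to an optical density of 0.05 in synthetic complete medium, grown for about 7 hours and collected at a density near 0.40. The sources used here call the replicates independent and do not say what the numbers stand for. They also do not say which culture was in which RNA extraction batch or how dense each culture was at harvest. Culture, extraction batch and harvest density therefore cannot be told apart from the number.

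Budding yeast adjusts a large part of its transcripts to how fast it can grow. When nitrogen and glucose are plentiful, the TOR and protein kinase A pathways keep the genes for ribosome assembly, RNA polymerases I and III and ribosomal proteins active. The same pathways hold back the transcription factors Msn2 and Msn4, which induce general stress genes, and Gln3 and Gat1, which induce genes for the use of poor nitrogen sources. Glucose also represses the genes for respiration and for other carbon sources. Transcripts of these groups are thus a common readout of the state of a culture.

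Estimated counts summed to between 71103539 and 95991179 per library, and the totals of low- and high-numbered libraries overlapped. Replicates differed by more than counting error, with a chi-square of 67.4 to 110 per degree of freedom between the 2 libraries of a group. Markers of mating type a were abundant and those of type alpha near 0 in all 8 libraries: *STE2*, the receptor for alpha factor, ran from 273 to 391 TPM, the authors' measure of abundance scaled by transcript length, and *MFALPHA1*, which encodes alpha factor, from 0.438 to 0.825 TPM. *HIS3* and *HO*, deleted according to the strain table of the study, were listed at 59.1 to 93.6 TPM and 6.88 to 16.5 TPM. How much of each gene the deletions remove is not given in the sources used here. Transcripts encoded by the mitochondrial genome, of which few are polyadenylated, took 0.0028% to 0.0042% of the counts in low-numbered libraries and 0.0044% to 0.0074% in high-numbered ones, without overlap. The part of RNA preparation in the results below was not tested.

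On the first principal component of the 8 libraries, which held 67.4% of the variance, high-numbered libraries lay above low-numbered ones of the same strain. In BY, libraries 1 and 2 were at -17.9 and -20.7 and libraries 4 and 5 at -2.95 and 10.5. In BY *UBR1* -469A>T, libraries 1 and 2 were at -9.11 and 1.81 and libraries 4 and 5 at 14.9 and 23.4. Across strains the groups overlapped, because library 2 of BY *UBR1* -469A>T lay above library 4 of BY. BY library 1 stood apart on the second component, at 13.8 against at most 7.21 in the others.

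With the strain as a covariate, 2815 of the 5993 tested transcripts differed between high- and low-numbered libraries at an adjusted p under 0.1 (edgeR's quasi-likelihood test, 47% of those tested). Of these, 1480 (24.7%) were higher and 1335 (22.3%) lower in the high-numbered libraries. Most changes were small: the median size of a called log2 fold change was 0.28, with a median standard error of 0.065 over all transcripts, and 82.2% of the called transcripts changed by less than 0.5. A size over 1 was found for 53 transcripts, 26 higher and 27 lower. The 4 high-numbered libraries lay wholly above or wholly below the 4 low-numbered ones for 1104 transcripts (18.4% of those tested), 476 of them higher (7.94%) and 628 lower (10.5%). All log2 fold changes below are high over low, and levels are in CPM (counts scaled to a common library size, after TMM normalization). The labels give separate cultures, so the p-values measure the spread between cultures, with all libraries taken as independent. Deviations of same-numbered libraries from their group means correlated at 0.526 for numbers 4 and 5 and at -0.156 for numbers 1 and 2. With 2 libraries a group, numbers 4 and 5 must give the same value, as must 1 and 2. The independence of same-numbered libraries was assumed and not shown. With the libraries of a number summed, 2017 transcripts were called. The split by number was proposed with an earlier view of these libraries, so that the counts of calls describe it and are no independent evidence for it.

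Transcripts for ribosome assembly formed the group with the largest shift upward among lists of more than 10 members. Of 96 factors that process ribosomal RNA or assemble, remodel and export the subunits, 90 were called higher in high-numbered libraries and 0 lower, beside 24.7% and 22.3% of all tested. Their median log2 fold change was 0.55, against -0.001 for all transcripts, and their range was from -0.0021 to 1.07. In 12 of them (12.5%) the 4 high-numbered libraries all lay above the 4 low-numbered ones, beside 7.94% of all tested.

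**Figure D1:**
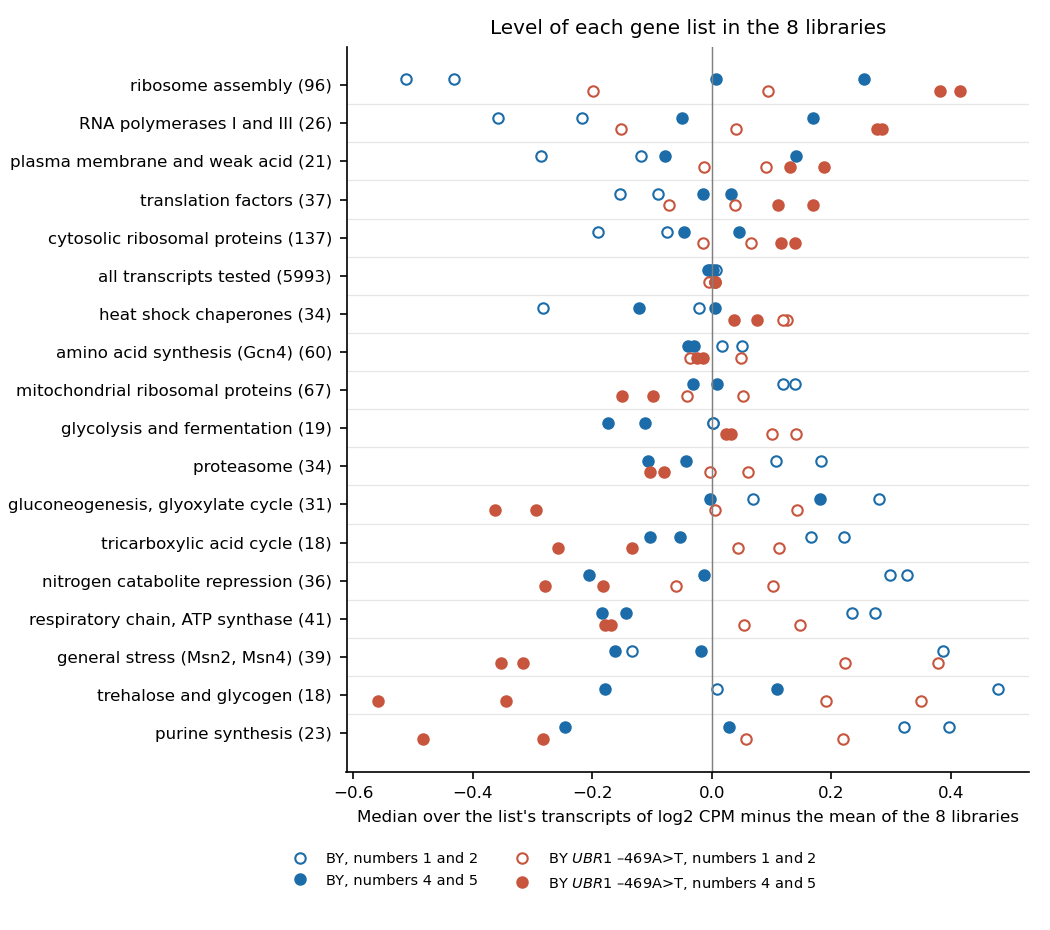
Level of 18 sets of transcripts (gene lists and all tested transcripts) in the 8 libraries, given as the median over a list's transcripts (number tested in brackets) of log2 CPM minus the transcript's mean over the 8 libraries; open circles are replicates 1 and 2 and filled circles replicates 4 and 5. For ribosome assembly, BY went from -0.43 and -0.51 to 0.0077 and 0.25, and BY *UBR1* -469A>T from -0.20 and 0.093 to 0.38 and 0.42.

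The 2 largest changes of the list were those of *REI1* and *NOG2*. *REI1* encodes a cytoplasmic factor of 60S subunit maturation. It had 20.1 and 15.6 CPM in BY libraries 1 and 2 against 37.9 and 57.3 in libraries 4 and 5, and in BY *UBR1* -469A>T 31.1 and 49.3 against 65.4 and 69.1. High-numbered libraries were higher within each strain, but the groups overlapped across strains (log2 fold change 1.07 ± 0.21 (SE), adjusted p = 0.0067). *NOG2* encodes a GTPase needed for export of the 60S subunit from the nucleus. It had 51.2 and 37.6 CPM against 87.8 and 120.5 in BY, and 76.6 and 109.9 against 159 and 167 in BY *UBR1* -469A>T (1.02 ± 0.16, adjusted p = 0.0044). Other members, chosen after their values were seen, include *UTP20*, a component of the small subunit processome, for which the 4 high-numbered libraries were all above the 4 low-numbered ones. It had 106 and 115 CPM against 176 and 200 in BY and 133 and 169.5 against 232 and 251 in BY *UBR1* -469A>T (0.72 ± 0.084, adjusted p = 0.0039). The 6 members that were not called were *TIF6*, *GAR1*, *ESF1*, *NOP10*, *NOP1* and *NOP56*, with log2 fold changes between -0.0021 and 0.12, and were also named after their values were seen.

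Promoters of this group share 2 sequence elements, called PAC and RRPE, which were searched as GCGATGAG and AAAAATTTT on both strands from 250 bases before to 50 bases after the start codon. PAC was found in 56.2% of the 96 promoters and RRPE in 68.8%, against 4.13% and 7.22% of the 5717 promoters read. The windows of 4 members with both elements are shown because these transcripts are among the list's largest changes; they were read from the RefSeq R64 genome, span 200 bases from 250 to 51 bases before the start codon, run 5′ to 3′ on the gene's strand, and have PAC and RRPE in capitals in either orientation. *UTP6*, also of the small subunit processome, and *DBP8*, an RNA helicase of 40S assembly, were chosen after their values were seen.
NOG2 (minus strand, chrXIV:723163-723362): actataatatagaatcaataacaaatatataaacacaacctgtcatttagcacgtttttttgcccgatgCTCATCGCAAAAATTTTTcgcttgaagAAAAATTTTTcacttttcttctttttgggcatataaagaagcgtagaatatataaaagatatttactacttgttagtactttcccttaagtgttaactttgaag
REI1 (plus strand, chrII:739591-739790): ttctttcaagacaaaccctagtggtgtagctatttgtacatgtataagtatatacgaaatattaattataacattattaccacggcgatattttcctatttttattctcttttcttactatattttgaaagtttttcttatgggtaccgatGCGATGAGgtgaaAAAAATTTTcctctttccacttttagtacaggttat
UTP6 (minus strand, chrIV:1358953-1359152): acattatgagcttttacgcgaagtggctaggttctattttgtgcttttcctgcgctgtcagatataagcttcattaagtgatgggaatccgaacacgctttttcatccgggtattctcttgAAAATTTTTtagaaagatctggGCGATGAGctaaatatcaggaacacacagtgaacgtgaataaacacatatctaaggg
DBP8 (plus strand, chrVIII:441931-442130): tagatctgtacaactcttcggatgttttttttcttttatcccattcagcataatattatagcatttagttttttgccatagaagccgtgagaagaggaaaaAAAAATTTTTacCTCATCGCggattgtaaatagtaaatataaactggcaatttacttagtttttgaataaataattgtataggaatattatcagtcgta
The PAC and the nearest RRPE adjoin each other in *NOG2* and lie 2, 5 and 13 bases apart in *DBP8*, *REI1* and *UTP6*. Tod6 and Dot6 bind PAC and repress these genes. *TOD6*, named after its values were seen, was itself among the largest rises, from 9.24 and 8.51 to 23.9 and 45.4 CPM in BY and from 19.5 and 29.9 to 44.3 and 58.6 CPM in BY *UBR1* -469A>T (2.83-fold, adjusted p = 0.0052), whereas *DOT6* was not called (-0.03 ± 0.097).

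Transcripts of the machinery that makes ribosomal RNA and tRNA were higher as well. Of 26 subunits and factors of RNA polymerases I and III, 23 were called higher (88.5%, beside 24.7% of all tested) and 1 lower. Their median log2 fold change was 0.31. *RPC25*, a subunit of RNA polymerase III, had 17.5 and 14.4 CPM against 23.4 and 29.9 in BY and 20.4 and 25.0 against 35.1 and 38.0 in BY *UBR1* -469A>T (0.72 ± 0.10, adjusted p = 0.0041). *RRN11*, a factor of RNA polymerase I initiation, changed by 0.71 ± 0.23, with an adjusted p of 0.038 that rose to 0.12 without BY library 5 and 0.11 without library 1 of BY *UBR1* -469A>T. The 1 member called lower was *MAF1*, named after its values were seen, which encodes the repressor of RNA polymerase III. Its change was small, from 95.9 and 102 to 90.0 and 88.2 CPM in BY and from 95.0 and 85.3 to 80.3 and 82.0 CPM in BY *UBR1* -469A>T (-0.15 ± 0.049, adjusted p = 0.040).

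Transcripts for the ribosome itself shifted less than those for its assembly. Of 137 cytosolic ribosomal protein genes, 64 were called higher (46.7%, beside 24.7% of all tested) and 1 lower. Their median log2 fold change was 0.13. In 3 of them (2.19%) the 4 high-numbered libraries all lay above the 4 low-numbered ones, beside 7.94% of all tested. Many ribosomal protein genes exist as near-identical pairs, whose reads the authors' counting had to divide. *IFH1*, a coactivator of these genes named after its values were seen, was higher (0.46 ± 0.097, adjusted p = 0.0085). The largest rise was that of *RPL22B* (0.67 ± 0.11, adjusted p = 0.0044), with 36.4 to 64.4 CPM at low and 59.6 to 92.8 CPM at high numbers, and the next that of *RPS9A* (0.57 ± 0.091, adjusted p = 0.0044). The member called lower, *RPL41B*, shares 81.2% of its 31-base words with other transcripts, mainly its duplicate gene. PAC was found in 0.73% of the ribosomal protein promoters and RRPE in 4.38%. Among 37 translation factors, 22 were called higher (59.5%, beside 24.7% of all tested) and 1 lower (median 0.17). *NIP1*, a subunit of initiation factor eIF3, separated the groups in all libraries, with 160 to 199 CPM at low and 208 to 283 CPM at high numbers (0.49 ± 0.062, adjusted p = 0.0039).

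The deepest falls in high-numbered libraries were in genes for the use of nitrogen sources. Nitrogen catabolite repression keeps these genes low while good sources such as glutamine and ammonium are at hand. Of 36 genes of the list, 24 were called lower (66.7%, beside 22.3% of all tested) and 1 higher, with a median log2 fold change of -0.34. In 13 (36.1%) the 4 high-numbered libraries all lay below the 4 low-numbered ones, beside 10.5% of all tested.

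Transporters led this group. *MEP2* (R64 chrXIV:357453-358952), a high-affinity ammonium transporter, had 255 and 165 CPM in BY libraries 1 and 2 against 36.2 and 27.6 in libraries 4 and 5, and 87.3 and 52.6 against 21.6 and 18.7 in BY *UBR1* -469A>T. All high-numbered libraries were below all low-numbered ones, and the fitted fall was 4.80-fold (log2 fold change -2.26 ± 0.26, adjusted p = 0.0039). *GAP1*, the general amino acid permease, went from 718 and 560.5 to 155 and 95.7 CPM in BY and from 299 and 164 to 67.6 and 59.3 CPM in BY *UBR1* -469A>T (-2.11 ± 0.23, adjusted p = 0.0039). Here the lowest low-numbered library, at 164 CPM, stood just above the highest high-numbered one, at 155 CPM. *AGP1*, a permease for many amino acids, fell 2.48-fold (-1.31 ± 0.12, adjusted p = 0.0039), *DUR3*, the urea transporter, 3.59-fold (-1.85 ± 0.22, adjusted p = 0.0039), and *PUT4*, the proline permease, 3.53-fold (-1.82 ± 0.35, adjusted p = 0.0063), the last with overlapping groups. *PTR2*, the di- and tripeptide transporter whose repressor Cup9 is a substrate of Ubr1, was 1.95-fold lower in high-numbered libraries (-0.96 ± 0.13, adjusted p = 0.0039). *CUP9* itself was also lower (-0.42 ± 0.083, adjusted p = 0.0069). *AGP1*, *PTR2* and *CUP9* are not members of the nitrogen catabolite repression list.

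Enzymes and regulators of nitrogen use followed. *DUR12* (YBR208C), which encodes urea amidolyase, went from 1031 and 622 to 134 and 102 CPM in BY and from 289 and 178 to 82.2 and 85.6 CPM in BY *UBR1* -469A>T (-2.14 ± 0.31, adjusted p = 0.0041). *DAL3*, which encodes ureidoglycolate lyase of the allantoin pathway, was lower by 1.23 ± 0.16 on the log2 scale and had 19.9 and 15.9 CPM against 6.92 and 5.50 in BY and 10.5 and 8.27 against 5.24 and 4.68 in BY *UBR1* -469A>T. Among the regulators, named after their values were seen, the GATA activator gene *GAT1* fell 2.33-fold (-1.22 ± 0.16, adjusted p = 0.0039), with overlap across strains. *GLN3*, the other GATA activator, and *URE2*, which restrains Gln3, were not called, with log2 fold changes of -0.10 and -0.05. The GATA repressor gene *GZF3* was lower by 0.15 on the log2 scale, and the repressor gene *DAL80* was not called (-0.14 ± 0.20). At 0.35 to 0.67 CPM, *DAL80* was too low to tell whether it followed the group. Genes of ammonium assimilation, in the list of amino acid synthesis, were also lower: *GDH1*, NADP-dependent glutamate dehydrogenase (-0.72 ± 0.12, adjusted p = 0.0045), and *GLN1*, glutamine synthetase (-0.63 ± 0.057, adjusted p = 0.0039, named after its values were seen). *GLN1* had 2242 to 2980 CPM in low-numbered and 1499 to 1855 CPM in high-numbered libraries.

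**Figure D2:**
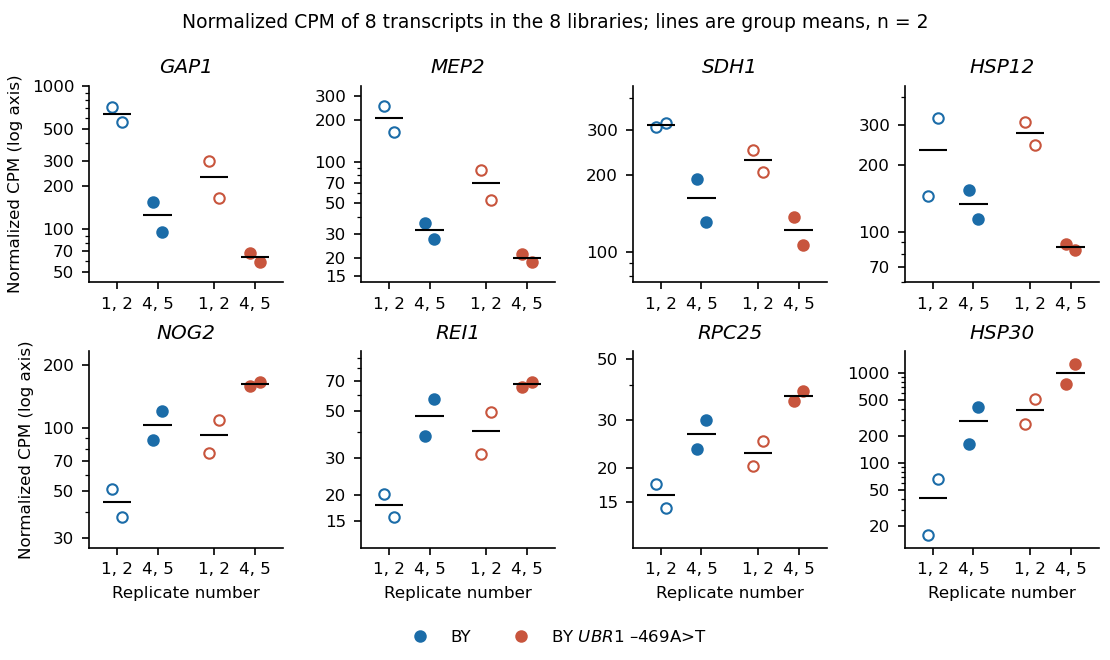
Normalized CPM (log axis) of 8 transcripts in each of the 8 libraries by strain and replicate number; points are libraries and black lines the means of 2. *GAP1*, *MEP2* and *SDH1* were lower and *NOG2*, *REI1*, *RPC25* and *HSP30* higher at numbers 4 and 5 in both strains, while BY library 1 of *HSP12*, at 145 CPM, lay within the range of BY libraries 4 and 5.

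GATA factors bind GATAAG, which was found in 44.4% of the 36 promoters of the nitrogen list on either strand, against 14.9% of all promoters read. The windows of 4 members are shown with GATAAG and its complement CTTATC in capitals, from 250 to 51 bases before the start codon in R64 as above: *GAT1* and *DAL3*, each with 4 matches of which some overlap, *DAL7*, malate synthase of the allantoin pathway, with 3, and *MEP2* with 1.
GAT1 (plus strand, chrVI:95716-95915): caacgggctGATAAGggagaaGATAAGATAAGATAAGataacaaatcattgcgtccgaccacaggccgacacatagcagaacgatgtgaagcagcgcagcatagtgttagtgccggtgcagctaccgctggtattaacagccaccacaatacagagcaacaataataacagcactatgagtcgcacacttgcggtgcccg
DAL3 (minus strand, chrIX:415668-415867): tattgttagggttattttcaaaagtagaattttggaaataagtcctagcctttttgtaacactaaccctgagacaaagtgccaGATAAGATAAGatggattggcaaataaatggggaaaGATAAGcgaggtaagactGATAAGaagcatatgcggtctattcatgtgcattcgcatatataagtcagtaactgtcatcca
DAL7 (minus strand, chrIX:414730-414929): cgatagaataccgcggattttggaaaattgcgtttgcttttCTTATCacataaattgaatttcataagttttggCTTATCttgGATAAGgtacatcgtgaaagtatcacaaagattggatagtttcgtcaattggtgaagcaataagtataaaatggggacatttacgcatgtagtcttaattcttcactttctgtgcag
MEP2 (plus strand, chrXIV:357203-357402): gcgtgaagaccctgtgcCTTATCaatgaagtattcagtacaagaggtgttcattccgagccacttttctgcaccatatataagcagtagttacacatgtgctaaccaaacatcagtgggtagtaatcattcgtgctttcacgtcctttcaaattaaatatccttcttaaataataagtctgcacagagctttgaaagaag
The number of matches did not order the members by their change: *MEP2* with 1 match in this window fell further than *GAT1* and *DAL3* with 4, and no match was found in the same window of *DUR12*, *DUR3* and *PUT4*.

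Genes for the synthesis of purines and the 1-carbon units they need were lower. Of 23, 18 were called lower (78.3%, beside 22.3% of all tested) and 4 higher (median -0.53). *ADE17*, which catalyses the last steps to inosine monophosphate, had 2159 and 2451 CPM against 1555 and 1112 in BY and 1887 and 1608 against 949 and 773 in BY *UBR1* -469A>T (-0.91 ± 0.12, adjusted p = 0.0039), and all high-numbered libraries were below all low-numbered ones. *GCV2*, a subunit of glycine decarboxylase, fell by 0.87 ± 0.11 on the log2 scale (adjusted p = 0.0039). Members called in the other direction, named after their values were seen, were *BAS1*, an activator of this pathway (0.62 ± 0.10, adjusted p = 0.0046), *IMD4* and *GUA1* of the branch to guanine nucleotides (0.38 and 0.23) and *SHM1*, the mitochondrial serine hydroxymethyltransferase (0.50). The list of 60 genes for the synthesis of amino acids, many of them targets of the activator Gcn4, divided, with 24 called lower (40%) and 12 higher (20%), beside 22.3% and 24.7% of all tested, and a median of -0.08, which was -0.04 without BY library 1 and -0.05 without BY library 5. *SER3*, the first enzyme of serine synthesis, had 286 to 463 CPM in low-numbered and 102 to 215 CPM in high-numbered libraries (-1.24 ± 0.15, adjusted p = 0.0039), and overlaps the noncoding RNA SRG1, whose reads could not be told apart from its own. *CPA1* of arginine synthesis (0.63 ± 0.13, adjusted p = 0.0075) and *GCN4* itself (0.23 ± 0.075, adjusted p = 0.042) were higher; both were named after their values were seen.

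General stress genes and genes for storage carbohydrates were lower in high-numbered libraries. Of 39 targets of Msn2 and Msn4, 27 were called lower (69.2%, beside 22.3% of all tested) and 0 higher (median -0.48). Of 18 genes for trehalose and glycogen, 13 were called lower (72.2%) and 1 higher (median -0.51). *HSP12*, a small membrane-protecting protein, had 311 and 245 CPM against 88.6 and 83.4 in BY *UBR1* -469A>T. In BY it had 145 and 322 CPM in libraries 1 and 2 against 154 and 114 in libraries 4 and 5, so that the groups overlapped there (-1.25 ± 0.27 over both strains, adjusted p = 0.010). *NQM1*, a transaldolase (-0.89 ± 0.26, adjusted p = 0.027), and *CTT1*, cytosolic catalase (-0.71 ± 0.22, adjusted p = 0.036, named after its values were seen), had the same overlap in BY, with 49.1 and 109 CPM in library 1. *GDB1*, the glycogen debranching enzyme, had 200 to 334 CPM at low and 75.6 to 189 CPM at high numbers (-1.11 ± 0.22, adjusted p = 0.0071), and *PGM2*, phosphoglucomutase, 845 to 1366 against 436 to 769 CPM (-0.92 ± 0.17, adjusted p = 0.0062). Both separated the groups. The element AGGGG, to which Msn2 and Msn4 bind, was found in 66.7% of the stress list's promoters and in 21.9% of all promoters read.

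Of 34 heat shock chaperones and partners, 7 were called lower (20.6%) and 6 higher (17.6%), both shares below those of all tested (22.3% and 24.7%), with a median of -0.05 (0.10 within BY and -0.08 within BY *UBR1* -469A>T). *APJ1*, an Hsp40 chaperone, was the largest called rise, from 24.8 and 32.8 to 47.4 and 77.0 CPM in BY, and it had 61.4 and 83.0 against 85.8 and 77.2 CPM in BY *UBR1* -469A>T (0.64 ± 0.23, adjusted p = 0.058). This call was lost without BY library 1, 2 or 5 or library 1 of BY *UBR1* -469A>T, with a log2 fold change of 0.39 without BY library 5. *HSP104*, the disaggregase, and *HSP82*, which encodes Hsp90, were not called (-0.16 and 0.29, named after their values were seen).

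Nuclear genes for respiration were lower as a body. Of 41 subunits and partners of the respiratory chain and ATP synthase, 37 were called lower (90.2%, beside 22.3% of all tested) and 2 higher. In 33 of the 41 (80.5%) all high-numbered libraries were below all low-numbered ones, beside 10.5% of all tested. The median was -0.36. *CYC7*, the minor isoform of cytochrome c, fell 1.93-fold (-0.95 ± 0.18, adjusted p = 0.0066) and *STF2*, a stabiliser of the ATPase inhibitor complex, 1.57-fold (-0.65 ± 0.12, adjusted p = 0.0055). The 2 higher members, named after their values were seen, were *CYC1*, the major isoform (0.18), and *HAP4*, the activating subunit of the Hap complex that induces respiratory genes (0.44 ± 0.15, adjusted p = 0.046). *HAP4* had 95.4 and 159 CPM against 179.5 and 205.5 in BY and 193 and 218.5 against 248 and 254 in BY *UBR1* -469A>T. CCAAT, the element bound by the Hap complex, was found in 80.5% of these promoters and in 43.9% of all promoters read.

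In the tricarboxylic acid cycle, 12 of 18 genes were called lower (66.7%, beside 22.3% of all tested) and 2 higher (median -0.29). *SDH1*, the flavoprotein of succinate dehydrogenase, had 308 and 319 CPM against 193 and 131 in BY and 251 and 206 against 137 and 106 in BY *UBR1* -469A>T (-0.93 ± 0.13, adjusted p = 0.0041). *SDH2*, its iron-sulfur subunit, was lower by 0.56 ± 0.064 on the log2 scale (adjusted p = 0.0039). Of 67 mitochondrial ribosomal protein genes, 37 were called lower (55.2%) and 1 higher (median -0.13). The largest fall was that of *MRPS12* (-0.32 ± 0.061, adjusted p = 0.0066). Of 8 listed transcripts of the mitochondrial genome, 4 had enough counts, and *COX1*, a core subunit of cytochrome oxidase (0.69 ± 0.19, adjusted p = 0.021), and *ATP6* of ATP synthase (0.72 ± 0.27, adjusted p = 0.068) were higher. The call of *ATP6* was lost without BY library 4 and without library 1, 2 or 5 of BY *UBR1* -469A>T, with log2 fold changes down to 0.47. *OLI1*, another ATP synthase subunit (0.41 ± 0.26, adjusted p = 0.24), and *VAR1*, a mitochondrial ribosomal protein (-0.15 ± 0.20, adjusted p = 0.56), were not called and were named after their values were seen. Their levels were low, at 7.54 to 22.6 CPM for *COX1*, and poly(A) selection takes such transcripts up poorly.

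Genes that respond to glucose shifted unequally. Of 31 genes of gluconeogenesis, the glyoxylate cycle and other glucose-repressed functions, 11 were called lower (35.5%, beside 22.3% of all tested) and 2 higher (median -0.27). This median was -0.42 without BY library 1 and -0.15 without library 5 of BY *UBR1* -469A>T. *ALD4*, mitochondrial aldehyde dehydrogenase, went from 1155 and 1394 to 1058 and 691 CPM in BY and from 1064 and 751 to 464 and 295 CPM in BY *UBR1* -469A>T (-0.90 ± 0.22, adjusted p = 0.016). *HXT7*, a high-affinity glucose transporter, was lower as well (-0.79 ± 0.19, adjusted p = 0.013), but 95.7% of its 31-base words occur in other transcripts, so that its reads could come from a near-identical transporter. *MIG2*, a repressor of glucose-repressed genes, rose in BY, from 20.1 and 39.6 to 97.6 and 98.5 CPM, and had 57.8 and 57.1 against 79.3 and 50.4 CPM in BY *UBR1* -469A>T (0.94 ± 0.34 over both, adjusted p = 0.059). It was not called without BY library 2 or without BY library 5, and its log2 fold change was 0.60 without BY library 1. The low-affinity transporter genes *HXT1* and *HXT3*, named after their values were seen, were not called over both strains (0.41 ± 0.18 and 0.16 ± 0.078). Within BY both were called, with log2 fold changes of 0.76 (adjusted p = 0.043) and 0.31 (adjusted p = 0.051). Within BY *UBR1* -469A>T they changed by 0.06 and 0.005 and were not called. The strain-by-number interaction had an adjusted p of 0.55 for each. Of 19 genes of glycolysis and fermentation, 9 were called lower (47.4%, beside 22.3% of all tested) and 0 higher (median -0.15). Among them are abundant transcripts, such as *ADH1*, alcohol dehydrogenase, with 10920 to 13460 CPM in all 8 libraries (-0.20 ± 0.041, adjusted p = 0.0075).

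The 2 largest rises of all called transcripts were in genes of the plasma membrane. *HSP30* (R64 chrIII:156109-157107), an inhibitor of the proton pump Pma1, had 16.0 and 66.4 CPM against 162 and 424.5 in BY and 270 and 511 against 768 and 1255 in BY *UBR1* -469A>T (2.10 ± 0.55, adjusted p = 0.019). *TPO2*, a polyamine exporter, had 12.7 and 25.8 CPM against 84.3 and 182 in BY and 98.2 and 202 against 336 and 460 in BY *UBR1* -469A>T (2.08 ± 0.42, adjusted p = 0.0077). Both genes spread widely between replicates of a group, and the low-numbered BY *UBR1* -469A>T libraries lay within or above the range of high-numbered BY libraries. For *TPO2*, 49.9% of the 31-base words occur in other transcripts. Of 21 genes for membrane and weak acid stress, 10 were called higher (47.6%) and 2 lower (9.52%), with a median of 0.16. The shares over all tested were 24.7% and 22.3%. In 1 gene of the list (4.76%) the 4 high-numbered libraries all lay above the 4 low-numbered ones, beside 7.94% of all tested. The genes called higher include *PMA1* (0.37 ± 0.073, adjusted p = 0.0070) and *YRO2* (0.83 ± 0.27, adjusted p = 0.040), both named after their values were seen. *YRO2* encodes a membrane protein related to Hsp30.

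Other lists moved less, or in part. Of 34 proteasome genes, 24 were called lower (70.6%, beside 22.3% of all tested) and 0 higher (median -0.18). *PUP3*, a core subunit, changed most (-0.41 ± 0.069, adjusted p = 0.0047). *RPN4*, which encodes the activator of proteasome genes and was named after its values were seen, was not called (0.24 ± 0.14). Of 33 cell wall genes, 16 were called higher (48.5%) and 2 lower, and of 19 induced by pheromone 10 (52.6%) and 0. Of 22 genes of autophagy and vacuolar proteases, 2 were called higher and 15 lower (68.2%). Each of these lists had more calls to one side, beside 24.7% higher and 22.3% lower of all tested. In the cell cycle lists of G1/S, G2/M and M/G1 genes, 10 of 29, 5 of 23 and 5 of 20 were called higher and 5, 4 and 0 lower. The shares called higher were 34.5%, 21.7% and 25%, beside 24.7% of all tested. For G2/M and M/G1 the medians within the strains had opposite signs, as given below. Histone genes, ergosterol synthesis, the unfolded protein response and the phosphate regulon had medians between 0.0073 and 0.10. *INO1*, which makes inositol phosphate, was lower (-0.76 ± 0.099, adjusted p = 0.0039), while *INO2*, which encodes an activator of *INO1*, was higher (0.85 ± 0.21, adjusted p = 0.015). *UBR1* had 157 and 156 CPM against 135 and 143 in BY and 162 and 166 against 177 and 184 in BY *UBR1* -469A>T (-0.02 ± 0.067, adjusted p = 0.85). This value averages opposite changes, -0.17 within BY (adjusted p = 0.083) and 0.14 within BY *UBR1* -469A>T (adjusted p = 0.15). Their difference was 0.31 ± 0.086 (edgeR interaction, unadjusted p = 0.0078, adjusted p = 0.55).

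Of the 12 largest rises in which all high-numbered libraries lay above all low-numbered ones, 4 were open reading frames in introns of *COX1* (*AI1*, *AI2*, *AI4* and *AI5_BETA*), which overlap it, and 5 were annotated by the authors' transcript set but not matched to R64. The other 3 were *URB2*, a factor of 60S assembly outside the list (0.77 ± 0.11, adjusted p = 0.0039), *PRM6*, a potassium transporter (1.02 ± 0.15, adjusted p = 0.0041), and *NFG1*, a regulator of filamentous growth (0.84 ± 0.13, adjusted p = 0.0041). Of the 12 largest falls of this kind, 7 were the transporters and enzymes of nitrogen use *MEP2*, *DUR12*, *GAP1*, *DUR3*, *AGP1*, *DAL3* and *MEP1*, and the others were *SER3*, *GDB1*, *COX26*, which encodes a subunit of cytochrome oxidase (-1.09 ± 0.20, adjusted p = 0.0059), and 2 frames not matched to R64, with under 1 CPM. Among the most abundant transcripts per length, those lower at high numbers were *HOR7*, *RPL41B*, *ADH1*, *GPM1* and *TPI1*, and those higher were YDR524C-B, *CWP2*, *RPS29B*, *CCW12* and *RPS29A*, with log2 fold changes from -0.49 to 0.31. The call of *RPS29A* was lost when any of 5 libraries was left out, that of YDR524C-B when any of 6 was, and that of *CCW12* without library 1 of BY *UBR1* -469A>T.

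Promoter elements were also counted over all transcripts, whatever their list. PAC was found in 12.9% of the promoters of transcripts called higher and 1.01% of those called lower, and RRPE in 17.2% and 2.25%. Of the 99 tested promoters with both, 85.9% belonged to transcripts called higher and 5.05% to transcripts called lower, with a median log2 fold change of 0.43, where the 5167 promoters with neither had 21.4% and 24.3% and a median of -0.01. AGGGG went the other way, with 36.0% of the promoters of lower and 11.9% of those of higher transcripts. The share called lower was 18.5% for the 4462 promoters without it, 36.0% for the 1085 with 1 match and 43.5% for the 170 with 2 or more. GATAAG was found in 16.8% of the promoters of lower transcripts, beside 14.9% of all. TGACTC, searched as the Gcn4 element, was found in 10.7% of lower and 6.73% of higher promoters, and in 56.5% of the purine list. Which factor binds it in these promoters was not tested. These are counts of letters in a window, and neighbouring genes that point apart can share one.

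**Figure D3:**
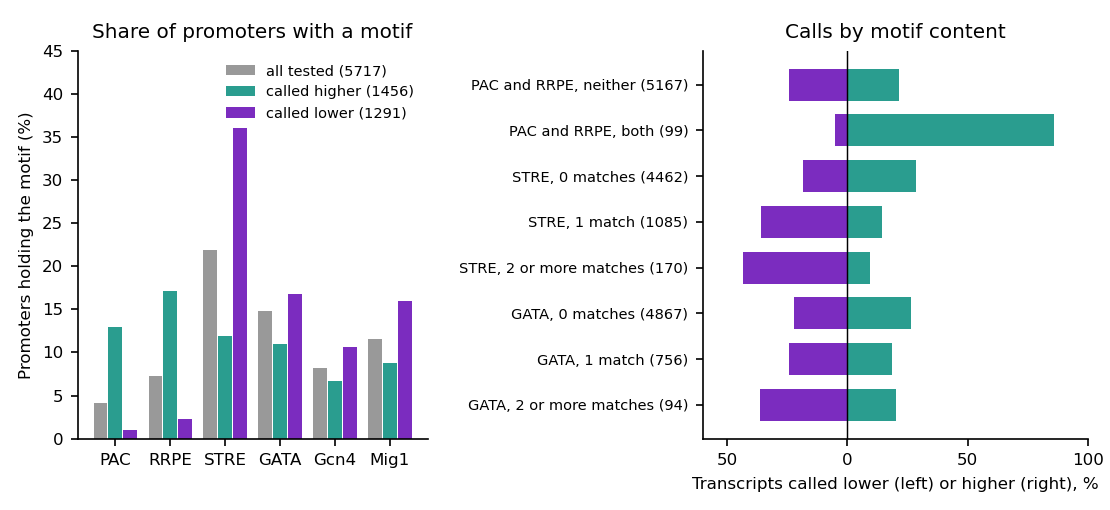
Left, percent of promoters with each motif among all 5717 promoters read and among those of transcripts called higher (1456) or lower (1291) in high-numbered libraries; right, percent of transcripts called higher (green, to the right) or lower (purple, to the left) by motif content of the promoter, with the number of promoters in brackets. Promoters with both PAC and RRPE had 85.9% called higher, and those with 2 or more AGGGG elements (STRE) 43.5% called lower.

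Whether both strains followed the same change was asked within each strain and by the strain-by-number interaction, from a fit with 4 groups that share 1 estimate of the spread. Within BY, 1893 transcripts (31.6%) were called, 1026 higher (17.1%) and 867 lower (14.5%). Within BY *UBR1* -469A>T, 1789 (29.9%) were called, 950 higher (15.9%) and 839 lower (14%). These counts rest on 2 against 2 libraries and on single ones among them: without BY library 5 the count in BY was 0, without BY libraries 1 and 2 in turn it was 930 and 1062, and without library 1 or library 5 of BY *UBR1* -469A>T that of the edited strain was 0. Of the transcripts called in BY, 91.9% changed in the same direction in BY *UBR1* -469A>T and 51.5% were called there too. Of those called in BY *UBR1* -469A>T, 93.1% had the same direction in BY and 54.4% were called there. Opposite calls in both strains were made for 6 transcripts. Over all tested transcripts 75.9% shared the direction, and the 2 sets of log2 fold changes, which share no library, had a Pearson r of 0.66 and a Spearman rho of 0.68 across transcripts, which are not independent.

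**Figure D4:**
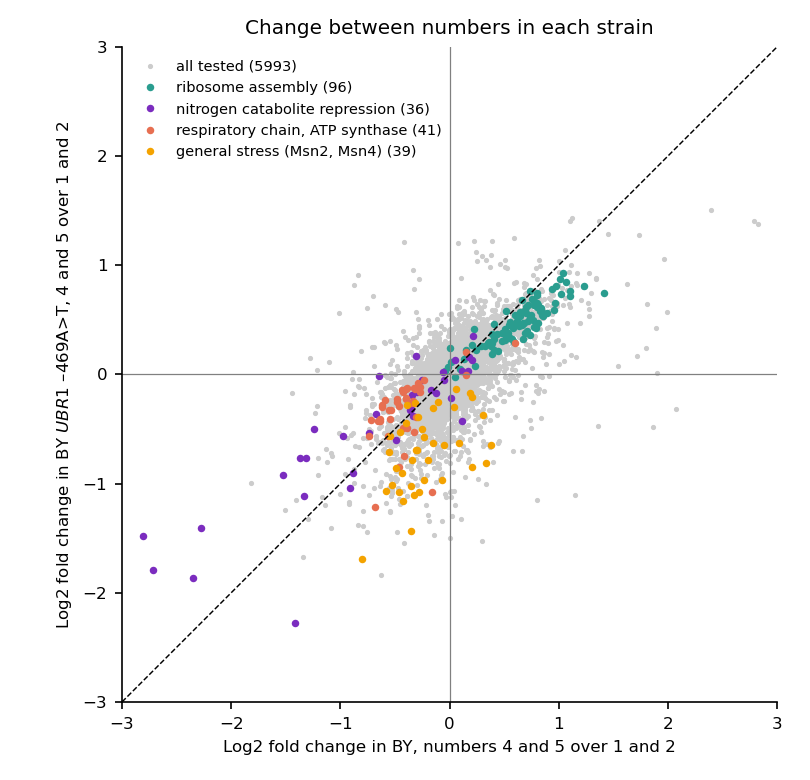
Log2 fold change of numbers 4 and 5 over 1 and 2 in BY (horizontal axis) against that in BY *UBR1* -469A>T (vertical axis) for the 5993 tested transcripts, with the members of 4 gene lists in color and the line of equal change dashed. Of the 96 ribosome assembly transcripts, 93 lie in the quadrant of rises in both strains, and the general stress genes spread along the vertical axis, with medians of -0.29 within BY and -0.69 within BY *UBR1* -469A>T.

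No transcript passed the test of the difference between the strains at an adjusted p under 0.1 in edgeR (0% of those tested), where 532 (8.88%) had an unadjusted p under 0.05, and DESeq2 called 32. The median size of that difference was 0.12 on the log2 scale, equal to its median standard error of 0.12, so that differences of the size of most changes were not detectable with 2 libraries a group. Without BY library 2, 218 transcripts were called. The smallest unadjusted p belonged to *MDH2*, cytosolic malate dehydrogenase, which had 57.2 and 57.9 CPM against 77.2 and 85.8 in BY and 66.9 and 73.4 against 62.9 and 63.0 in BY *UBR1* -469A>T (difference -0.66 ± 0.11, unadjusted 0.00031, adjusted p = 0.55 in edgeR). *MYO1*, *WSC4*, *PRM4*, *SUR1* and *CCC2* came next, each also with an adjusted p of 0.55.

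Gene lists in which most members were called had medians of the same sign in both strains, with the exception of the iron genes (0.02 and -0.10). The median for ribosome assembly was 0.64 within BY and 0.46 within BY *UBR1* -469A>T, for nitrogen catabolite repression -0.36 and -0.34, for purine synthesis -0.47 and -0.50, and for the respiratory chain -0.41 and -0.27. Among the cell cycle lists, the medians had opposite signs for G2/M (-0.18 and 0.23) and M/G1 (-0.13 and 0.22) and were 0.03 and 0.22 for G1/S. Medians were also further apart for general stress genes (-0.29 and -0.69), trehalose and glycogen (-0.28 and -0.66) and glucose-repressed genes (-0.03 and -0.53). The difference between strains was not tested for lists. Beside 8.88% of all transcripts, it was below an unadjusted p of 0.05 for 10 of 23 G2/M, 11 of 20 M/G1 and 10 of 29 G1/S genes, for 9 of 31 glucose-repressed and 6 of 39 stress genes, and for 1 of 18 genes of trehalose and glycogen. Among the 8 libraries the level of G2/M genes was highest in BY library 1 (0.21) and that of M/G1 genes in library 5 of BY *UBR1* -469A>T (0.15). For the stress genes and for trehalose and glycogen, BY library 1 was the lowest of the low-numbered libraries: for the stress genes its level was -0.13, beside 0.39 in BY library 2 and 0.38 and 0.22 in BY *UBR1* -469A>T libraries 1 and 2.

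The libraries numbered 3, which entered no fit, were placed on the called transcripts by scaling the mean of libraries 1 and 2 of the same strain to 0 and that of libraries 4 and 5 to 1. Library 3 of BY was at 0.29 and library 3 of BY *UBR1* -469A>T at 0.63. Of the 2815 called transcripts, 71.1% lay between the 2 means in the former and 79.9% in the latter. Called transcripts were picked for low and high means that lie apart, and no share over all tested is set beside these shares. They therefore do not show that the libraries numbered 3 follow the split. With transcripts called in the other strain alone, the positions were 0.14 and 0.63. By list, BY library 3 was between the means for ribosome assembly (0.26) and nitrogen catabolite repression (0.24), but beyond the low-numbered mean for general stress genes (-0.39) and for trehalose and glycogen (-0.20). BY *UBR1* -469A>T library 3 lay between the means for all 4, at 0.71, 0.73, 0.41 and 0.43.

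**Figure D5:**
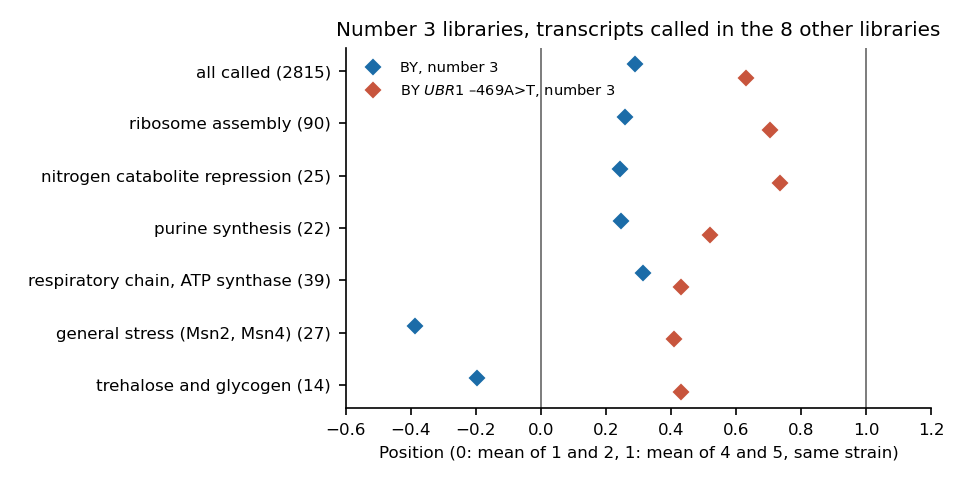
Position of the 2 libraries numbered 3 between the means of low-numbered (0) and high-numbered (1) libraries of the same strain, as the mean over transcripts called in the 8 other libraries, for all called transcripts and for called members of 6 lists (number in brackets). BY library 3 ran from -0.39 to 0.31 over the lists and BY *UBR1* -469A>T library 3 from 0.41 to 0.73.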

How the data were processed

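RNA was sequenced from 5 cultures of each strain. Extraction was done in 2 batches with the strains balanced, and the stranded poly(A) libraries were made together. Per the labels and methods, the authors trimmed reads with fastp and quantified them with Kallisto against Ensembl 96 transcripts. They deposited estimated counts and TPM (abundance scaled by transcript length) for 6612 transcripts in each library. The strand setting and the assembly are not given in the sources used here, so overlapping and antisense frames are uncertain. Totals were 71103539 to 95991179 in the 8 libraries, and intervals from them would cover counting error only.

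Estimated counts were rounded and TMM-normalized, transcripts with 10 or more in each of the 8 libraries were kept (5993, leaving out 619), and edgeR 4.0.16 (R 4.3.3, limma 3.58.1) fitted strain plus low or high number. A fit of 4 groups gave the contrasts within strains and the interaction. Calls were made at a Benjamini-Hochberg adjusted p under 0.1. The log2 levels used a prior count of 0.5, except that the principal components and the correlations of deviations used edgeR's default prior count. TPM were used only to rank abundance and to read markers. Deviations of same-numbered libraries from their group means correlated at 0.526 for numbers 4 and 5 and at -0.156 for 1 and 2. Each is a single value by construction. The numbers were not taken as pairs in the main fit, and fits with the number as a block were alternatives. On simulated counts of 5975 transcripts for the 8 libraries with 200 changed, the fit recovered 87% of log2 changes of 0.5 and 98% of those of 1.0 with 22 false calls. The simulated libraries were independent of each other and had fewer changed transcripts than were called in the data. Variation shared by same-numbered libraries was not simulated.

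The split, the 45 lists and the rule for named genes were chosen with earlier results of these data known. The rule names the 12 largest rises and falls without overlap and with 1 sign in both strains, the 2 largest called changes of each list, the 6 smallest interaction p-values, the 5 most abundant called transcripts in each direction and *UBR1*. Promoters were read from RefSeq R64 for 5717 tested transcripts. Of all IDs, 5929 matched R64, and *IMD1* and *CRS5* of the lists matched no transcript of the deposited tables. Further listed members did not pass the count minimum, in the heat shock, cell wall, iron, meiosis, other hexose transporter and mitochondrially encoded lists. Alternatives were RLE and upper-quartile scaling, no count minimum, a minimum of 100, DESeq2 1.42.0, a threshold of 0.05, 1 surrogate variable (sva 3.50.0), the replicate block, number 3 added to either side, and each library left out.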

Additional observations from a re-analysis of the deposited data

How the results depend on the processing

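The count over both strains (2815) was between 2208 and 3326 with the other scalings, minimums, tool, threshold, surrogate variable or number 3 added, and between 1917 and 2983 when 1 library was left out. With the replicate number as a random replicate block it was 2750, and with the libraries of a number summed 2017. The interaction count was 0 with a fixed replicate block, 32 in DESeq2 and 0 to 218 with 1 library left out, and a crossed pairing, chosen after seeing the data, gave 29. At a threshold of 0.05 the counts within BY and BY *UBR1* -469A>T were 1025 and 534. With 1 library left out they were 0 to 1863 and 0 to 1850, where the lone library was assumed to vary like the others. The cause was not tested.

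List medians moved beyond their replicate spread in 33 of 506 comparisons. With 1 library left out they ranged from 0.0582 to 0.1986 for G1/S, -0.0862 to 0.1002 for G2/M, 0.0321 to 0.1348 for phosphate, -0.0679 to 0.0138 for the arginyl N-degron pathway, -0.0176 to 0.072 for ergosterol, -0.1042 to -0.0423 for amino acid synthesis, -0.4223 to -0.1457 for gluconeogenesis, -0.1566 to -0.1216 for glycolysis, -0.115 to -0.0696 for iron, 0.1027 to 0.3757 for mating type alpha, 0.0228 to 0.1082 for meiosis, 0.4271 to 0.7965 for mitochondrially encoded transcripts, -0.0157 to 0.1496 for salt response, 0.0662 to 0.1442 for thiamine, 0.0637 to 0.1094 for the unfolded protein response, -0.0517 to 0.0356 for zinc and -0.0042 to 0.0023 for all transcripts. The median of all was 0.0099 with upper-quartile scaling and -0.0052 with a minimum of 100 counts, which gave 0.4056 for mating type alpha. The share of higher promoters with PAC was 15.25% at 0.05. Changes of *CCC2* (-0.1097 to 0.0032) and *UBR1* (-0.0602 to 0.0292) took both signs. Of the named transcripts' alternative values, 1608 kept call and direction, 66 lost and 4 gained the call and 4 changed sign. What depth limits was not tested.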
